A study of Mus musculus with 16 samples.

Results

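The genes described here encode the subunits of the oxidative phosphorylation (OXPHOS) machinery of the mitochondrial inner membrane, taken complex by complex. Members were found by symbol: every gene named on the array whose symbol begins with Nduf, Uqcr, Atp5 or Cox4 to Cox8, together with Sdha, Sdhb, Sdhc, Sdhd, Cyc1, Cycs and any gene of the mitochondrial DNA. The rule used no measured value. It found 83 genes with 112 probes among the 16773 genes named on the array. Of these, 77 genes (101 probes) encode a subunit or cytochrome c, namely 33 of complex I, 4 of complex II, 8 of complex III, 17 of complex IV, 14 of complex V and Cycs. Another 6 genes, with 11 probes, are complex I assembly factors that share the letters Nduf and were kept apart. In the platform annotation used here no gene of the mitochondrial DNA had a named probe, and another 15 nuclear genes of these families, including Atp5g1, Atp5g2, Cox7a2l and Cox8a, had none either. They are not analysed here.

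Complexes I and II take electrons from NADH and succinate, complex III passes them to cytochrome c, and complex IV hands them to oxygen. Complexes I, III and IV pump protons as they do so, and complex V, the ATP synthase, lets the protons back to make ATP. In brown fat the uncoupling protein UCP1 lets protons back without making ATP, so that respiration gives heat. Brown fat is known for densely packed mitochondria with much respiratory chain and little ATP synthase, and it shares with striated muscle several tissue isoforms of complex IV subunits.

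The 16 arrays carried RNA of female C57BL/6 mice, with no genetic modification stated. Groups are named by tissue label and temperature. The cold groups spent 48 h at 22 °C and then 24 h at 8 °C, and the room temperature groups spent 72 h at 22 °C. There were 3 cold and 3 room temperature arrays of brown adipose tissue (BAT), 3 and 3 labelled white adipose tissue (WAT), and 2 and 2 labelled liver. The mice of both temperatures were housed singly, and no age is used here. The study's methods describe the RNA samples as handled separately and the 3 tissues as taken from the same animals. The labels do not say which arrays came from 1 animal, and p-values measure the spread between arrays. The signals are those of a 1-colour Illumina bead array, background-subtracted, so that values near or below 0 mean no signal above background. Tests were made with limma on normalised log2 values, with Benjamini-Hochberg adjustment over all 39730 probes tested, and a change passed at an adjusted p under 0.05. A gene was represented by its brightest probe.

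Cell type markers went against the WAT labels and, in part, against the liver labels. The median log2 level of 12 hepatocyte genes was 13.5, 13.3 and 13.5 on the cold and 13.7, 13.5 and 13.5 on the room temperature arrays labelled WAT. It was 7.2 and 5.7 on the cold and 13.3 and 12.4 on the room temperature arrays labelled liver. The albumin probe (Alb) gave at most 12.5 on any array. Adiponectin (Adipoq), the adipocyte hormone, gave signals of 18483 and 8258 on cold and 8151 and 10227 on room temperature arrays labelled liver, but 32.4, 16.6 and 27.5 on cold and 12.9, 65.7 and 14.8 on room temperature arrays labelled WAT. Room temperature arrays labelled liver were thus high in both hepatocyte genes and Adipoq. The arrays are therefore called "labelled WAT" and "labelled liver" throughout, and none was moved to another group. BAT arrays held Ucp1 at 15527, 13678 and 11788 in the cold and 12118, 11875 and 14893 at room temperature. They also held the skeletal muscle actin Acta1 at 10659, 13852 and 9809 in the cold and 14773, 12004 and 12202 at room temperature. A pair of arrays stood apart within their groups. Labelled liver cold replicate 2 had a Ucp1 signal of 12928, against 1774 on replicate 1. Labelled WAT cold replicate 3 had the pancreatic enzyme gene Cpa1 at 7150.1, against 5.5 and 1.4 on the other cold arrays of that label. The median log2 level of 8 pancreatic enzyme genes was 13.2 on labelled WAT cold replicate 3. It was also raised on labelled WAT room temperature replicates 1 (7.3) and 2 (8.1) and labelled liver room temperature replicate 2 (8.1), against at most 5.2 elsewhere.

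OXPHOS genes were higher in BAT than on the arrays of either other label, in all 5 complexes and at both temperatures. Of the 77 genes, 73 had a probe that passed the filter on dim probes. Ndufs1, Sdha, Cox8c and Atp5j did not pass it and have no test. At room temperature 60 of 73 were higher in BAT than on arrays labelled WAT and none was lower, where 15.4% of all genes tested were higher and 11.7% lower. In the cold the count was 63 of 73 and again none lower, where 16.1% of all genes were higher and 11.6% lower. Against arrays labelled liver, 60 of 73 were higher in BAT at room temperature (8.78% of all genes) and 56 of 73 in the cold (9.87% of all genes). None was lower there, where 7.69% of all genes were lower at room temperature and 11.9% in the cold. The median log2 difference over the 73 genes was 1.23 and 1.39 against arrays labelled WAT at room temperature and in the cold, and 1.47 and 1.22 against arrays labelled liver. The median over all genes tested lay between 0.00333 and 0.0157 in these 4 comparisons. Since a filter on dim values can favour genes that are high in 1 group, the same counts were taken over genes detected on all 16 arrays. Of 61 such members, 56 and 58 were higher than on arrays labelled WAT at room temperature and in the cold (26.5% and 28.9% of 5311 genes), and 55 and 52 were higher than on arrays labelled liver (17.7% and 20.7%). In bulk tissue, more RNA of these genes per cell and more cells of a type that is rich in them cannot be told apart.

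**Figure D1:**
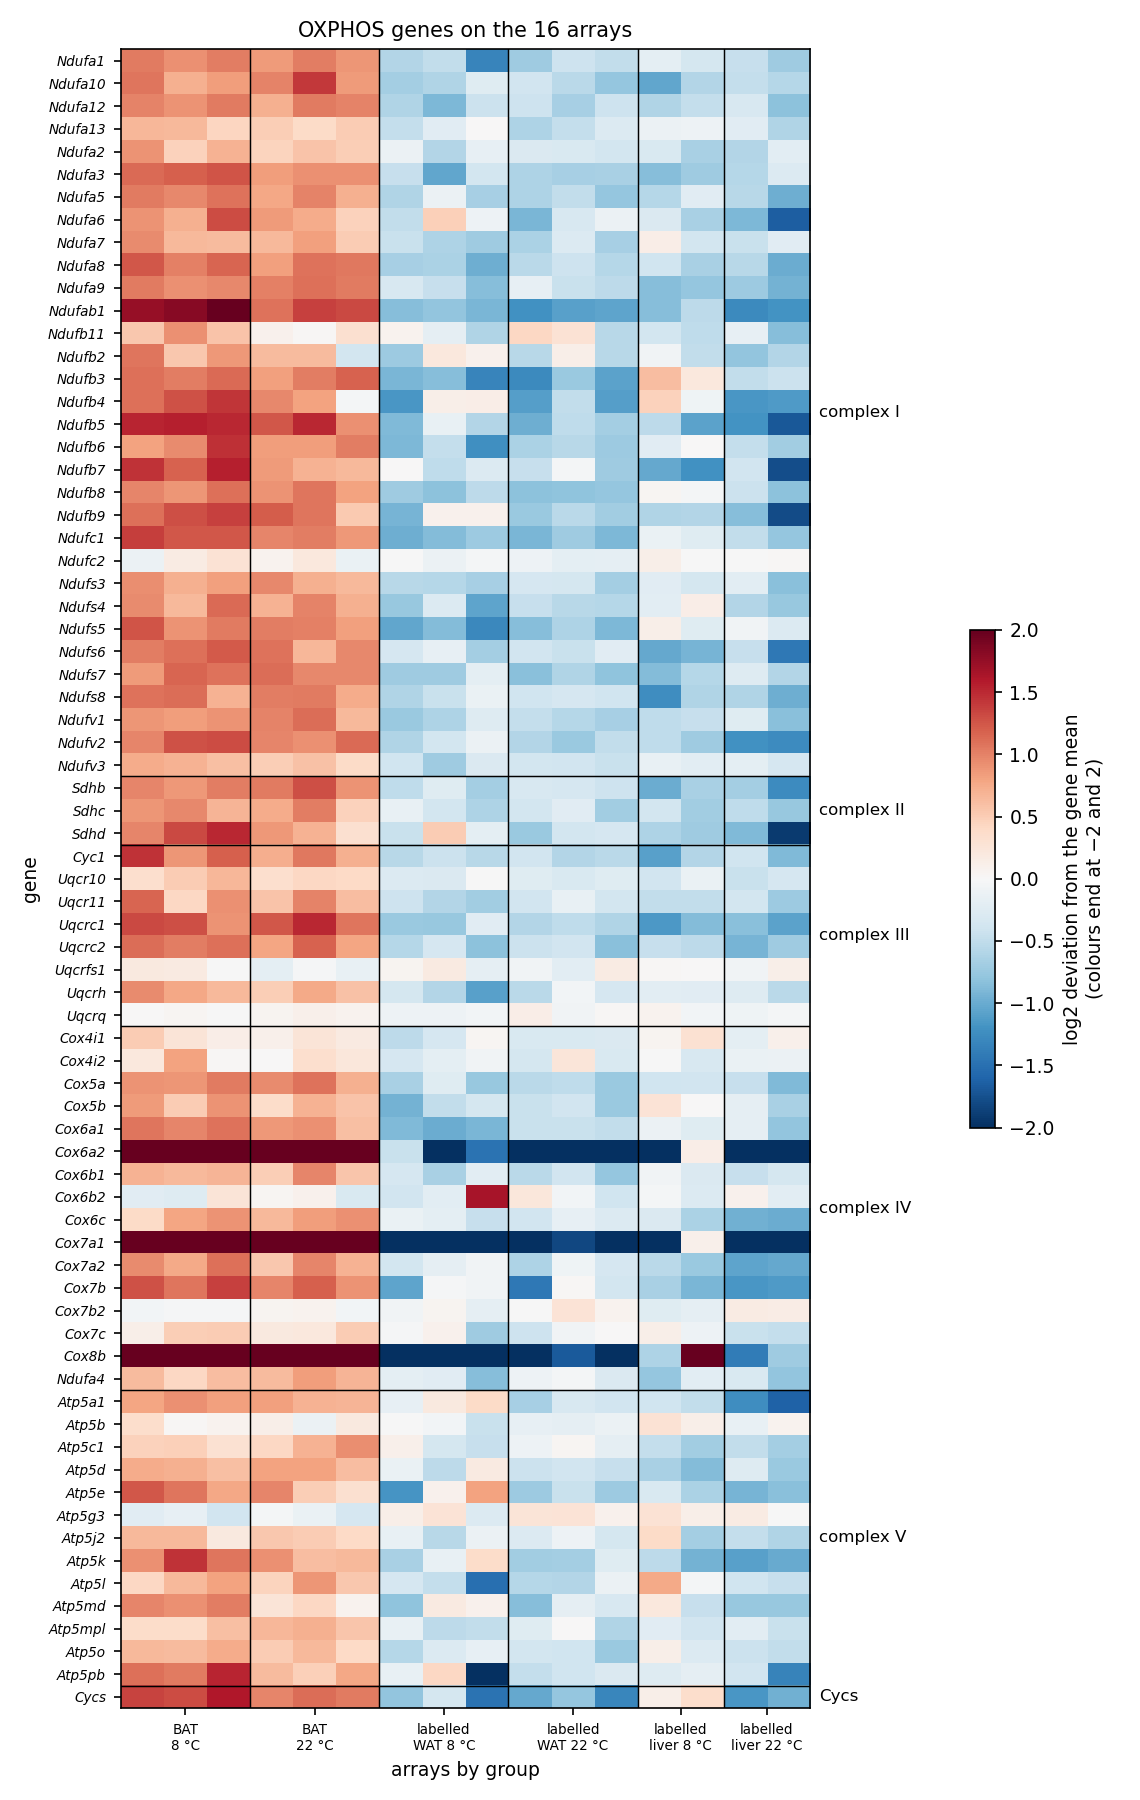
Heat map of the 73 tested OXPHOS genes (rows, grouped by complex) over the 16 arrays (columns, grouped by tissue label and temperature). Colour gives each gene's log2 level minus its own mean over all arrays; the BAT arrays have 66 to 71 of the 73 genes above their mean and the other arrays 3 to 18.

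The shift could be seen array by array. The median of the 73 genes' deviations from their own means was 0.95, 0.88 and 0.92 on cold BAT arrays and 0.79, 0.84 and 0.65 on room temperature BAT arrays (log2). On arrays labelled WAT it was -0.52, -0.36 and -0.43 in the cold and -0.48, -0.39 and -0.50 at room temperature. On arrays labelled liver it was -0.30 and -0.38 in the cold and -0.47 and -0.76 at room temperature. The BAT arrays did not overlap with any of the other 10. Gene by gene, 63 of 73 members at room temperature and 67 in the cold lay higher in BAT with no overlap of arrays with those labelled WAT, where 23.5% and 22.1% of all genes did. Against arrays labelled liver these counts were 67 at room temperature and 63 in the cold, where 22.4% and 24.9% of all genes did. Members lower in BAT with no overlap numbered 1 and 0 against arrays labelled WAT at room temperature and in the cold (19.4% and 16.3% of all genes), and 2 and 1 against arrays labelled liver (19.9% and 24.5%). The BAT arrays also carried muscle transcripts, whose part in these differences was not tested. With the 3 muscle isoforms Cox6a2, Cox7a1 and Cox8b set aside, 57 and 60 of 70 members were higher than on arrays labelled WAT at room temperature and in the cold, and 57 and 54 than on arrays labelled liver.

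**Figure D2:**
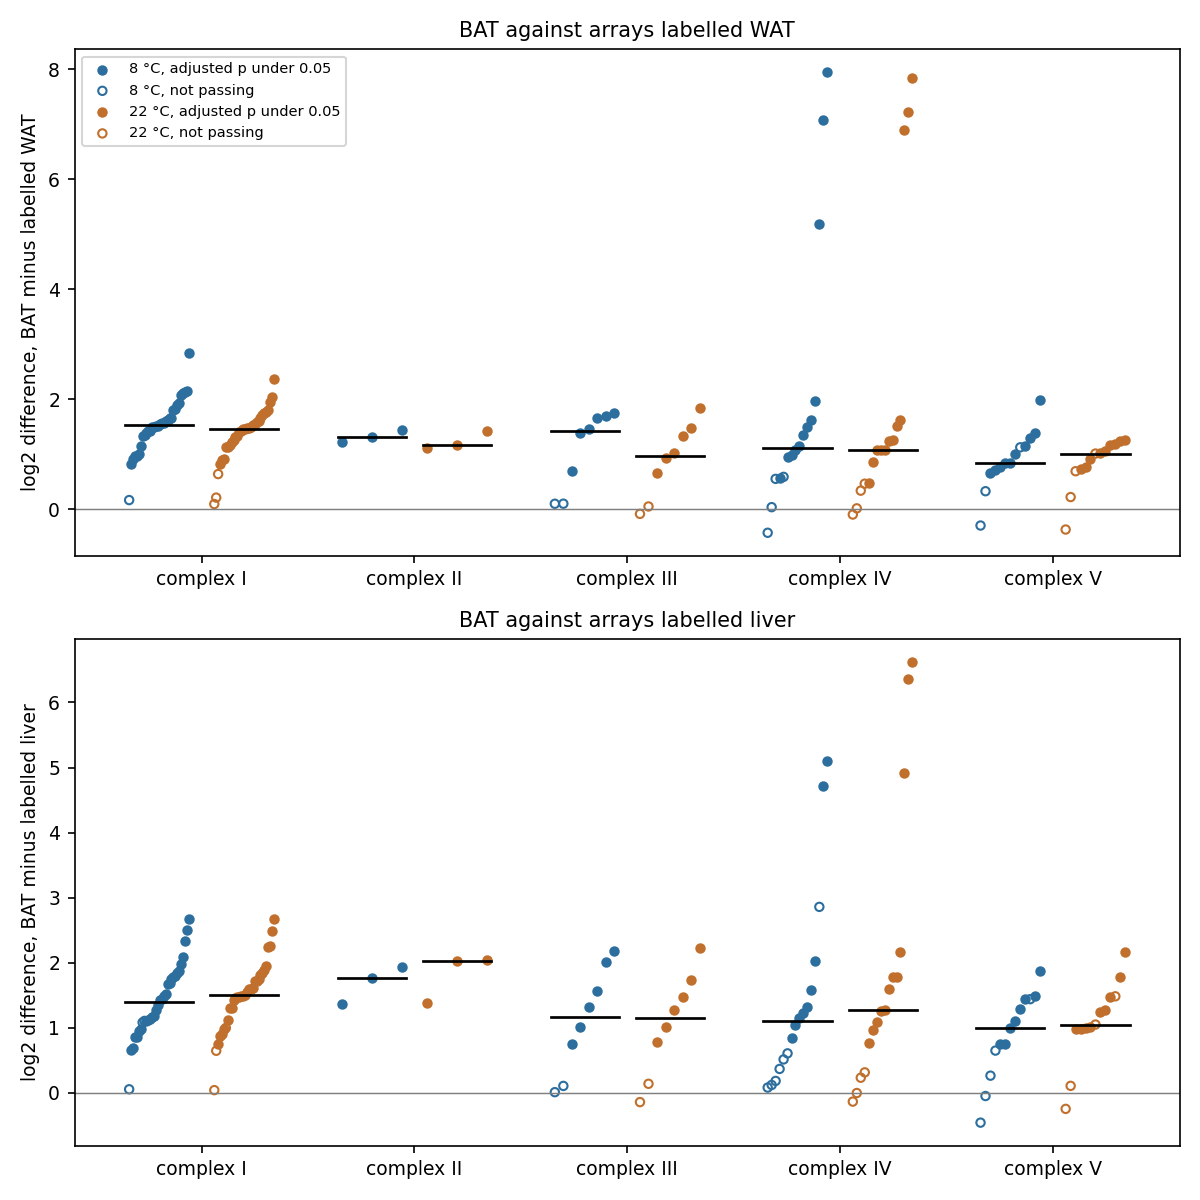
Log2 difference of each OXPHOS gene between BAT and the arrays labelled WAT or labelled liver, by complex, at each temperature. Each point is a gene, and its fill shows whether it passed an adjusted p of 0.05; nearly all points lie above 0, and Cox6a2 and Cox7a1 lie far above the rest in each comparison, as does Cox8b except in the cold against arrays labelled liver.

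Complex I, the NADH dehydrogenase, had the most members. Of its 32 tested genes, 29 were higher in BAT than on arrays labelled WAT at room temperature and 31 in the cold, with medians of 1.46 and 1.53 (log2). Against arrays labelled liver 29 were higher at each temperature, with medians of 1.5 and 1.39. All 5 tested core subunits were higher in all 4 comparisons. Among these, Ndufv1, which binds the flavin that accepts electrons from NADH, differed by 1.49 and 1.41 from arrays labelled WAT at room temperature and in the cold, and by 1.47 and 1.35 from arrays labelled liver. The accessory subunits spread more widely. Ndufc2 lay near background on every array and did not pass in any comparison, and Ndufb11 and Ndufb2 passed against arrays labelled WAT only in the cold.

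Ndufab1, the mitochondrial acyl carrier protein, had the largest difference of complex I in 3 of the 4 comparisons. Its signals were 269, 286 and 435 on cold and 166, 204 and 198 on room temperature BAT arrays, against 31.9, 34.2 and 30.1 on cold and 21.5, 24.9 and 25.8 on room temperature arrays labelled WAT. On arrays labelled liver they were 31.7 and 43.8 in the cold and 19.9 and 21.9 at room temperature. Every BAT array was above every other array. The log2 difference from arrays labelled WAT was 2.37 ± 0.15 (SE) at room temperature (limma adjusted p = 1.59e-07) and 2.83 ± 0.15 in the cold (adjusted p = 2.95e-08). From arrays labelled liver in the cold it was 2.68 (adjusted p = 1.43e-06). At room temperature the largest difference from arrays labelled liver was that of Ndufb5, an accessory subunit of the membrane arm, with signals of 716, 860.1 and 562 on BAT arrays against 119 and 80.4 on arrays labelled liver and a log2 difference of 2.67 (adjusted p = 1.33e-05). These did not overlap. The assembly factors that share the letters Nduf behaved alike in number, with 5 of 6 higher in BAT in each of the 4 comparisons and Ndufaf6, near background, as the exception.

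Complex II, the succinate dehydrogenase that also belongs to the citric acid cycle, was higher in BAT with all 3 tested members in each comparison. Sdhb, the iron-sulphur subunit, gave 4639, 4358 and 4925 on cold and 4873, 5841 and 4371 on room temperature BAT arrays. It gave 1668, 1982 and 1478 on cold and 1883, 1860.2 and 1771 on room temperature arrays labelled WAT, and 1166 and 1515 on cold and 1453 and 992 on room temperature arrays labelled liver. All 6 BAT arrays lay above the other 10. Its log2 differences were 1.43 and 1.43 from arrays labelled WAT at room temperature and in the cold, and 2.04 and 1.77 from arrays labelled liver, and all passed. Sdhc, a membrane anchor of the complex, differed less, by 1.17 and 1.22 and by 1.38 and 1.37 in the same order of comparisons. Sdhd, the other membrane anchor, differed by 1.11 (limma adjusted p = 0.0146) and 1.32 from arrays labelled WAT, and by 2.03 and 1.94 from arrays labelled liver. The room temperature difference of Sdhd from arrays labelled WAT no longer passed when BAT room temperature replicate 1 was left out (0.99, adjusted p = 0.0639), nor without BAT room temperature replicate 2 (adjusted p = 0.0516) or labelled WAT room temperature replicate 1 (adjusted p = 0.0660).

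In complex III, the cytochrome bc1 complex, 6 of 8 members were higher in BAT in each comparison. The exceptions, Uqcrfs1 (the Rieske iron-sulphur protein) and Uqcrq, gave no signal above background on any array. Uqcrc1, a core protein of the complex, gave 9973, 9947 and 7345 on cold and 8866, 11304 and 8273 on room temperature BAT arrays, against 2398, 2354 and 3510.2 on cold and 2662, 2868 and 2689 on room temperature arrays labelled WAT. On arrays labelled liver it gave 1812 and 2195 in the cold and 2198 and 1910.4 at room temperature. There was no overlap, and the log2 difference from arrays labelled liver at room temperature was 2.22 ± 0.18 (SE; limma adjusted p = 5.94e-06). Cyc1, the cytochrome c1 subunit that hands electrons to cytochrome c, differed by 1.34 and 1.69 from arrays labelled WAT at room temperature and in the cold, and by 1.47 and 2.01 from arrays labelled liver, and passed in all 4.

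Cycs, cytochrome c itself, gave 5287, 5277 and 6611 on cold and 4280.3, 4736 and 4517 on room temperature BAT arrays. Its signals were 1243, 1701 and 772 on cold and 1055, 1259.9 and 872 on room temperature arrays labelled WAT, and 2361 and 2783 on cold and 964 and 1097 on room temperature arrays labelled liver. All BAT arrays were above all others, and the cold arrays labelled liver came nearest to them. The log2 difference was 2.08 and 2.29 from arrays labelled WAT at room temperature and in the cold, 2.11 from arrays labelled liver at room temperature and 1.19 in the cold (limma adjusted p = 0.00656). The last did not pass without labelled liver cold replicate 1 (1.07, adjusted p = 0.0628).

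Complex IV, cytochrome c oxidase, held the largest differences of the whole set. Of 16 tested members, counting Ndufa4, now placed in this complex, 12 were higher in BAT than on arrays labelled WAT at each temperature, and 12 at room temperature and 9 in the cold were higher than on arrays labelled liver. Several of its nuclear subunits exist as pairs, a form found in most tissues and a form of heart and skeletal muscle. The muscle forms Cox6a2, Cox7a1 and Cox8b were the 3 members with the largest differences from arrays labelled WAT at both temperatures.

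**Figure D3:**
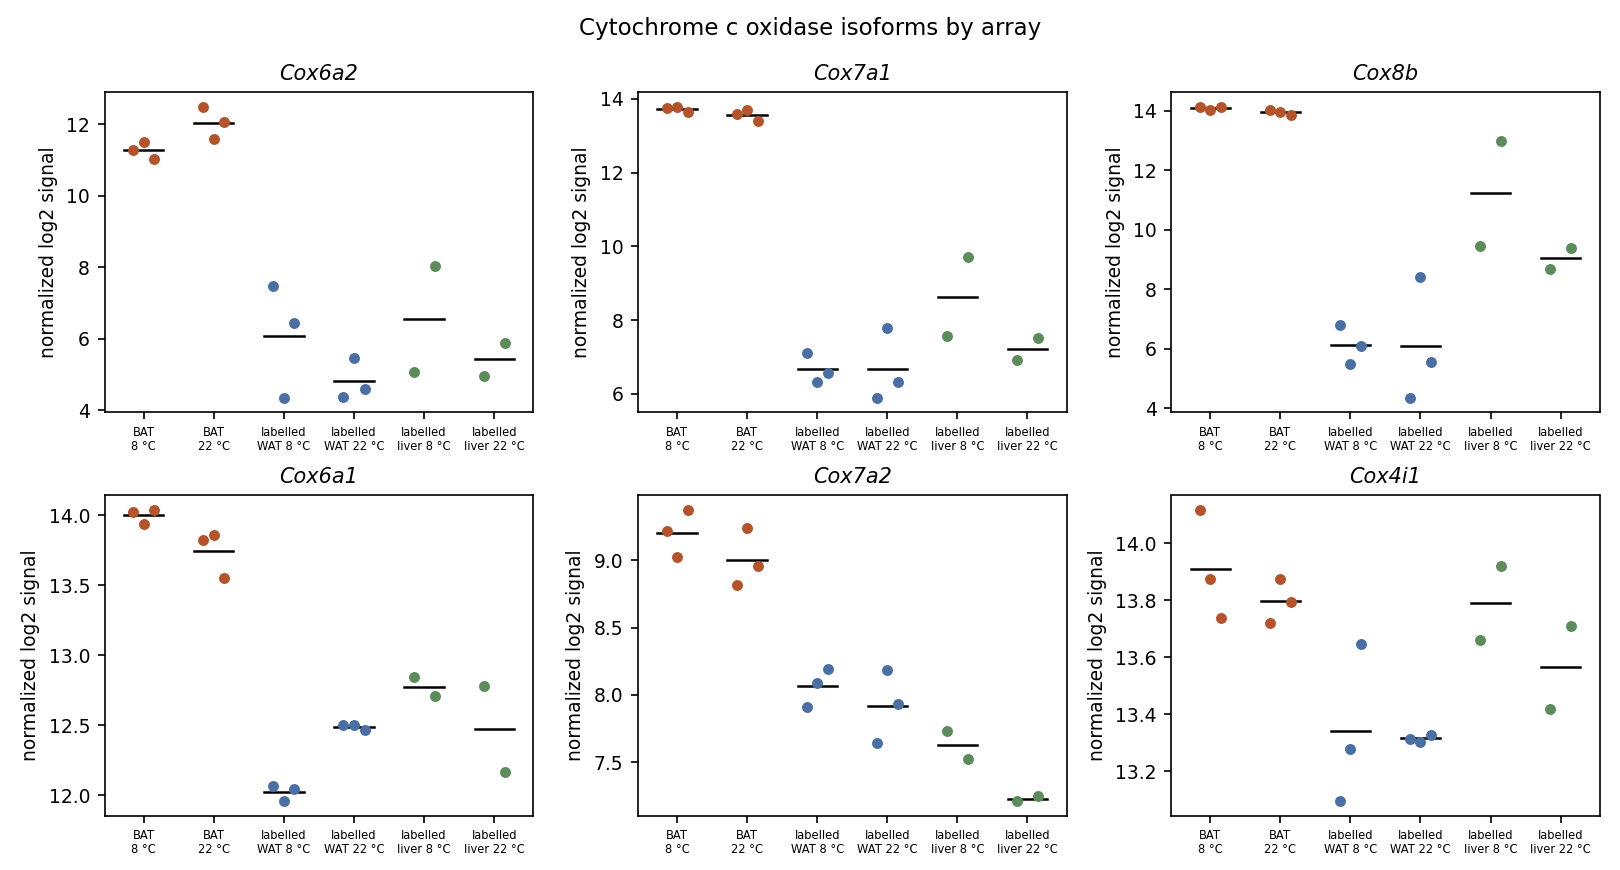
Normalised log2 signals of the complex IV isoforms on each of the 16 arrays, by group, with the muscle forms Cox6a2, Cox7a1 and Cox8b above the forms Cox6a1, Cox7a2 and Cox4i1. Points are single arrays and lines group means, on axes that differ between panels and do not start at 0; the muscle forms are high in BAT and lower elsewhere, with labelled liver cold replicate 2 the highest of the other arrays in each.

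Cox6a2, the muscle form of subunit 6a, gave 2465, 2844 and 2086 on cold and 5602, 3109 and 4139 on room temperature BAT arrays. It gave 161, -3.7 and 71.1 on cold and -2.5, 28.7 and 6.1 on room temperature arrays labelled WAT, where it was detected on 2 and 1 of 3 arrays, and 18.0 and 247 on cold and 15.5 and 43.5 on room temperature arrays labelled liver. BAT stood well above all others, and labelled liver cold replicate 2 was the highest of the rest. The log2 difference was 7.23 ± 0.78 (SE) from arrays labelled WAT at room temperature (limma adjusted p = 1.82e-05) and 6.62 ± 0.87 from arrays labelled liver (adjusted p = 0.000246). In the cold these were 5.19 and 4.72, both past the threshold. As several values outside BAT were near background, the size of these differences depends on the background correction. From arrays labelled WAT at room temperature the Cox6a2 difference was 6.08 with a normexp offset of 50 in place of 16 and 8.78 with no further correction, and passed under both. Cox6a1, the form of most tissues, gave 17396, 15353 and 15570.2 on cold and 13539, 13416 and 11976 on room temperature BAT arrays, against 4239, 3900.4 and 4214 on cold and 5735, 5882 and 5503 on room temperature arrays labelled WAT. It was also higher in BAT, but by 1.25 and 1.98 at room temperature and in the cold. As fitted with the offset of 16, the difference of Cox6a2 was larger than that of Cox6a1 by 5.98 and 3.22 against arrays labelled WAT and by 5.35 and 3.50 against arrays labelled liver, with no overlap of arrays and a 2-sided exact permutation p of 0.1 in each, the smallest that arrays in these numbers allow.

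Cox7a1, the muscle form of subunit 7a, gave 14159, 14520.1 and 12937 on cold and 12236, 12982 and 10586 on room temperature BAT arrays. On arrays labelled WAT it gave 121, 65.2 and 78.8 in the cold and 44.1, 205 and 64.8 at room temperature, and on arrays labelled liver 173 and 825 in the cold and 105 and 167 at room temperature. All BAT arrays were far above the rest. The log2 differences were 6.90 and 7.08 from arrays labelled WAT at room temperature and in the cold (limma adjusted p = 6.75e-07 and 4.73e-07), and 6.36 and 5.10 from arrays labelled liver. Cox7a2, the form of most tissues, differed by 1.08 and 1.14 from arrays labelled WAT and by 1.77 and 1.58 from arrays labelled liver. The Cox7a1 difference was larger than that of Cox7a2 by between 3.52 and 5.93 in the 4 comparisons, each with no overlap and an exact permutation p of 0.1, the smallest possible.

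Cox8b, a muscle form of subunit 8, gave 18660.0, 15663 and 16243 on cold and 15602, 14009 and 15264 on room temperature BAT arrays. It gave 97.3, 29.9 and 53.6 on cold and -3.2, 325 and 31.7 on room temperature arrays labelled WAT, and 697 and 8456 on cold and 399.8 and 651 on room temperature arrays labelled liver. BAT did not overlap with the others, but labelled liver cold replicate 2 was far brighter than replicate 1. That array also had the brown fat gene Cidea at 4915.5, against 233.0 on replicate 1, and Acta1 at 4968, against 732.5 on replicate 1. The log2 differences from arrays labelled WAT were 7.84 at room temperature and 7.94 in the cold. From arrays labelled liver the difference was 4.91 at room temperature (limma adjusted p = 0.00817) and 2.86 in the cold, which did not pass (adjusted p = 0.0991). Without labelled liver cold replicate 2 the cold difference was 4.62 (adjusted p = 0.0170). At room temperature, leaving out labelled liver replicate 1 gave 4.57 (adjusted p = 0.0697). The ubiquitous form Cox8a had no named probe.

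Muscle markers were high on BAT arrays, as these 3 isoforms were, and their part was not tested. The median log2 level of 12 skeletal muscle genes was 10.3, 10.6 and 10.1 on cold and 11.35, 10.88 and 11.02 on room temperature BAT arrays. On arrays labelled WAT it was 6.4, 4.5 and 5.9 in the cold and 4.4, 5.2 and 4.4 at room temperature, and on arrays labelled liver 4.7 and 8.0 in the cold and 4.8 and 5.1 at room temperature. Muscle creatine kinase (Ckm) gave 1065, 1362 and 809 on cold and 2700.2, 1389 and 1621 on room temperature BAT arrays, against at most 12.2 on arrays labelled WAT. Among arrays labelled WAT, the muscle median and Cox6a2 were highest on cold replicate 1. Cox7a1 and Cox8b were highest on room temperature replicate 2. The summed signal of 10 brown adipocyte genes was also highest there (1036.9, against 69.1 to 430.3 on the others of that label). The part of brown adipocyte transcripts was not tested either.

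The other pairs of complex IV behaved differently. Cox4i1, the main form of subunit 4, was bright everywhere, with 18215, 14998 and 13710.3 on cold and 13097, 13458 and 14690.3 on room temperature BAT arrays, 8932, 10367 and 12903 on cold and 10103, 10218 and 10842 on room temperature arrays labelled WAT, and 12699 and 14765 on cold and 10734 and 13131 on room temperature arrays labelled liver. BAT lay above arrays labelled WAT without overlap, and its signals overlapped with those labelled liver at both temperatures. It passed only against arrays labelled WAT, by 0.48 (limma adjusted p = 0.03) at room temperature and 0.57 (adjusted p = 0.0109) in the cold. Leaving out any 1 of the 6 room temperature arrays compared lost the first call (adjusted p between 0.0523 and 0.107), and leaving out BAT cold replicate 1 lost the second (adjusted p = 0.0552). Cox4i2, the form induced by low oxygen in lung, was dim, with signals of at most 44.5, and passed in none of the 4 comparisons. Cox6b1, the main form of subunit 6b, was higher in BAT by 1.24 and 1.07 against arrays labelled WAT and 1.09 and 0.85 against arrays labelled liver. The testis forms Cox6b2 and Cox7b2 lay near background.

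The RefSeq promoter windows (GRCm38.p6, 250 bases before to 50 after the start) of the isoforms that carry this contrast are printed next, 5′ to 3′ on the gene's strand. Capitals mark matches, on either strand, to the letters of 4 motifs of factors known to act on nuclear OXPHOS genes: NRF1 (GCGCATGCG), the ETS family that includes GABP (CCGGAAG), the estrogen-related receptors (TCAAGGTCA) and YY1 (AAGATGGCG). Cox6a2 had no window in the table.
Cox7a1 (chr7:30183921-30184220, plus strand): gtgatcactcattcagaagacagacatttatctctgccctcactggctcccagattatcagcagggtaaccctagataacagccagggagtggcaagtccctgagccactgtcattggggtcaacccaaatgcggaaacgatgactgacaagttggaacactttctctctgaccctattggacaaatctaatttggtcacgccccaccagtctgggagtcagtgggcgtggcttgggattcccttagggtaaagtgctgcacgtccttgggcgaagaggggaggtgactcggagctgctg
Cox7a2 (chr9:79759804-79760103, minus strand): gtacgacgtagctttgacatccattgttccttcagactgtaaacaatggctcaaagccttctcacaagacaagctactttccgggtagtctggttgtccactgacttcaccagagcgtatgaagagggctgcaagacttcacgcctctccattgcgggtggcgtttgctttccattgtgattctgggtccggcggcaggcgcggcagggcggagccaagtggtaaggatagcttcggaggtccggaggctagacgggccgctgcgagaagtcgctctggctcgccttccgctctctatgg
Cox8b (chr7:140900397-140900696, minus strand): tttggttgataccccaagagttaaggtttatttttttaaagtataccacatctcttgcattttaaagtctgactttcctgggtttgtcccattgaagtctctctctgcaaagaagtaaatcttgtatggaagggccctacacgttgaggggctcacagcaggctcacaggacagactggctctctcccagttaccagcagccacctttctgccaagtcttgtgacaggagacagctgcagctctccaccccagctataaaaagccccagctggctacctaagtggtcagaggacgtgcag
Cox6a1 (chr5:115348909-115349208, minus strand): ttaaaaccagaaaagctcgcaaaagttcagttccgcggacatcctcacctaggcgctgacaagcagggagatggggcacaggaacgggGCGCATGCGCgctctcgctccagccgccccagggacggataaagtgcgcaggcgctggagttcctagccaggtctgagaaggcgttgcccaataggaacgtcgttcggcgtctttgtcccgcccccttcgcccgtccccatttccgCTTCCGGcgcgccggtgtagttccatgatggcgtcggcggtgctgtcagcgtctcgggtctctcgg
Cox6a1 held an NRF1 and an ETS match, and the windows of Cox7a1, Cox7a2 and Cox8b held none of the 4, so the letters did not separate the forms. A match is a description of the letters and not a binding site, and its absence says only that these letters are not in this window. Of the 77 members, 63 had a window. At least 1 motif was present in 25 of these (39.7%), against 2484 of the 13508 genes named on the array that had a window and 13.1% of all 27025 genes with one. NRF1 letters were found in 7 members (11.1%, against 2.87% and 1.95%), namely Cox6a1, Uqcrc1, Uqcr11, Atp5k, Atp5l, Ndufa8 and Cycs. The estrogen-related receptor letters were found in Sdhd and Atp5g3 (3.17%, against 0.341% and 0.466%). YY1 letters were found in 7 members (11.1%, against 2.44% and 1.64%), of which Ndufa9, Ndufc1, Ndufs4, Ndufs6 and Ndufs7 belong to complex I and Atp5j and Atp5j2 to complex V. With the longer forms of 10 letters for NRF1 and 11 for YY1, 3 members (4.76%, against 1.63% and 1.07%) and 4 members (6.35%, against 1.18% and 0.755%) held a match. The ETS letters were found in 15 members (23.8%, against 14.1% and 9.93%).

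Complex V, the ATP synthase, was also higher in BAT, with 9 of 13 tested members passing against arrays labelled WAT at room temperature and 10 in the cold, and 9 and 8 against arrays labelled liver. The medians were 1.01 and 0.84 (log2) against arrays labelled WAT and 1.05 and 1.00 against arrays labelled liver. Whether complex V differed less than complex I was not tested. Among the catalytic F1 subunits, Atp5a1 (alpha) gave 372, 409.6 and 383 on cold and 380.1, 349 and 343 on room temperature BAT arrays. It gave 184, 239.8 and 278 on cold and 127, 164 and 157 on room temperature arrays labelled WAT, and 155 and 144 on cold and 79.4 and 57.4 on room temperature arrays labelled liver. No array of another label reached the BAT arrays. The log2 difference was 1.19 and 0.71 from arrays labelled WAT at room temperature and in the cold, and 2.17 ± 0.16 (SE) from arrays labelled liver at room temperature (limma adjusted p = 1.91e-06). Atp5b (beta) was bright on all arrays, between 10333 and 17813, and did not pass in any comparison (0.22, 0.33, 0.11 and -0.05). Atp5k, the small e subunit at the dimer interface, had the largest passing difference from arrays labelled WAT at room temperature (1.27, adjusted p = 0.00148) and from arrays labelled liver in the cold (1.88, adjusted p = 0.000367). Atp5pb, the b subunit of the stator, had it against arrays labelled WAT in the cold (1.98, adjusted p = 0.0244), where labelled WAT cold replicate 3 was lowest at 144.7, against 818.4 and 1210.4 on replicates 1 and 2. That call did not pass without any 1 of the 3 cold BAT arrays (adjusted p between 0.0517 and 0.0868).

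Atp5g3, 1 of 3 genes for the c subunit of the proton-carrying ring, was the only tested member with a lower mean in BAT in all 4 comparisons. It gave 8556, 9114 and 7682 on cold and 9174, 8787 and 7650.1 on room temperature BAT arrays. Its signals were 11096, 12019.6 and 8561 on cold and 11977, 12309 and 11015 on room temperature arrays labelled WAT, and 12509 and 11123 on cold and 11117 and 9944 on room temperature arrays labelled liver. BAT lay below the others without overlap except in the cold against arrays labelled WAT, where replicate 3 fell among the BAT values. The log2 differences were -0.37 (limma adjusted p = 0.0807) and -0.30 (adjusted p = 0.176) from arrays labelled WAT at room temperature and in the cold, and -0.25 (adjusted p = 0.466) and -0.46 (adjusted p = 0.0568) from arrays labelled liver, so none passed. Under several of the other settings tried it did pass, in at most 3 of the 4 comparisons. Without labelled WAT cold replicate 3, the array with the most pancreatic transcripts, 3 of the 4 passed, at -0.37 (adjusted p = 0.0211), -0.45 (adjusted p = 0.0133) and, against arrays labelled liver in the cold, -0.46 (adjusted p = 0.0150). Atp5g1 and Atp5g2, the other c subunit genes, had no named probe. The promoter windows of Atp5g3 and Sdhd, members whose differences ran opposite ways, are shown because they were the only members with the estrogen-related receptor letters (in capitals, with the ETS letters of Sdhd).
Atp5g3 (chr2:73911277-73911576, minus strand): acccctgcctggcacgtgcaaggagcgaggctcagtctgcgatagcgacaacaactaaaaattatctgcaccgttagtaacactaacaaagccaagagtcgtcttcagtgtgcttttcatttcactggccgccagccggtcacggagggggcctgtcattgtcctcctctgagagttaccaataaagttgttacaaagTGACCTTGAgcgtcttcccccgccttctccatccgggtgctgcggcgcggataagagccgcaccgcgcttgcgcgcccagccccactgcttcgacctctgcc
Sdhd (chr9:50603800-50604099, minus strand): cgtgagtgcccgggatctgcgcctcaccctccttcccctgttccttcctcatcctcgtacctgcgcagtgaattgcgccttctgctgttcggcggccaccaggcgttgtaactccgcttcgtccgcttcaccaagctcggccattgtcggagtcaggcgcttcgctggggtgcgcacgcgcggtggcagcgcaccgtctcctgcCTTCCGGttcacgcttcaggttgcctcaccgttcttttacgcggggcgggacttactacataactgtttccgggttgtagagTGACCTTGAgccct
The same motif thus stood in a gene with lower and in a gene with higher mean signals in BAT.

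The size of a difference varied with the brightness of the probe. The 45 members with a mean log2 level of 8 to 13 had a median difference from arrays labelled WAT at room temperature of 1.42, with 44 higher. The 10 members at 13 and over, which include Cox4i1, Atp5b and Atp5g3, had a median of 0.69 with 7 higher, and the 18 under 8 had 0.90 with 9 higher. In the cold against arrays labelled liver the medians for under 8, 8 to 13, and 13 and over were 1.11, 1.43 and 0.49. Bead signals near the top of the range can compress differences, and its part here was not tested. Of 20 genes with more than 1 tested probe, no gene had probes that passed in opposite directions in these 4 comparisons. All tested probes of a gene passed the same way for 9 and 10 genes against arrays labelled WAT at room temperature and in the cold. Against arrays labelled liver this held for 8 and 9. Only some of the probes passed for 6 and 8 genes against arrays labelled WAT, and for 8 and 7 against arrays labelled liver.

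Genes that work beside the complexes were also counted. Of all genes tested, 15.4% and 16.1% were higher in BAT than on arrays labelled WAT at room temperature and in the cold, and 8.78% and 9.87% were higher than on arrays labelled liver. Of 14 tested genes of the citric acid cycle and pyruvate dehydrogenase, 13 and 12 were higher than on arrays labelled WAT at room temperature and in the cold, with medians of 2.41 and 2.89 (log2), and 13 were higher than on arrays labelled liver at each temperature. Of 28 assembly factors outside the symbol rule, 14 and 20 were higher than on arrays labelled WAT at room temperature and in the cold and 18 than on arrays labelled liver at each temperature. Of 10 other proteins of electron entry and the inner membrane, 8 and 9 were higher than on arrays labelled WAT and 7 and 6 than on arrays labelled liver. None of these 3 lists had a gene lower in BAT in any of the 4 comparisons. A list of 9 tested genes for transcription and copying of mitochondrial DNA, which also held the nuclear receptor gene Esrra, was mixed. Of these, 3 were higher and 2 lower than on arrays labelled WAT at room temperature, and 3 higher and 1 lower in the cold. Against arrays labelled liver 3 were higher at room temperature and 4 in the cold, and none was lower.

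Cold and room temperature arrays of the same tissue label were compared next, to ask whether 24 h at 8 °C changed these genes. In BAT no member passed in either direction, where 0.424% of all genes were higher and 0.587% lower. Without adjustment, at a p under 0.05, 7 of 73 were higher and none lower, where 5.66% of all genes were higher and 6.09% lower. The estimated difference was positive for 56 members and negative for 17, with a median of 0.12 (log2). In complex I it was positive for 29 of 32 genes, with a median of 0.17, and the medians of complexes II to V lay between 0.09 and 0.14. The estimates varied with brightness. For members with a mean log2 level under 8, of 8 to 13, and of 13 and over, the medians were 0.33, 0.12 and 0.04. On arrays labelled WAT they were 0.24, -0.01 and -0.04 in the same order. The part of brightness was not tested. Members with no overlap between the temperatures numbered 14 higher and 2 lower in the cold, where 9.23% and 10.3% of all genes did. Marker genes also differed between these BAT arrays. The hepatocyte genes had medians of 5.2, 5.8 and 6.3 (log2) in the cold against 8.1, 7.3 and 8.0 at room temperature, without overlap. The skeletal muscle medians were also lower on each cold array than on each room temperature array. The part of these markers in the estimates was not tested.

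The lowest p in BAT was that of Ndufab1, with signals of 269, 286 and 435 in the cold against 166, 204 and 198 at room temperature. All 3 cold arrays were above all 3 room temperature arrays. The log2 difference was 0.73 ± 0.15 (SE) and just missed the threshold (limma adjusted p = 0.0576). It passed under 3 of the other settings tried. Its dimmer second probe, detected on 4 of the 16 arrays, gave 0.77 (adjusted p = 0.188). Ndufc1, another accessory subunit of complex I, followed with 11224, 10431 and 10945 in the cold against 8335, 8687 and 7835 at room temperature, which did not overlap, and a difference of 0.33 (adjusted p = 0.196). Atp5md, a small subunit of complex V, gave 77.6, 74.1 and 80.9 in the cold against 41.2, 47.9 and 34.2 at room temperature, also with no overlap, and a difference of 0.73 (adjusted p = 0.357). Cox6a2 had the most negative estimate, -0.77 (adjusted p = 0.917), with all 3 cold arrays below all 3 room temperature arrays. Relative to Cox6a1 it changed by -1.02, with an exact permutation p of 0.1, the smallest possible. The muscle enzyme gene Ckm had 1065, 1362 and 809 in the cold against 2700.2, 1389 and 1621 at room temperature, also without overlap, and its part in the Cox6a2 values was not tested. Cox7a1 and Cox8b differed by 0.17 and 0.14, neither of which passed. Esrra, a nuclear receptor that drives OXPHOS genes, rose by 0.75 in the cold (adjusted p = 0.0431). It was counted in the list of 9 with the genes for transcription and copying of mitochondrial DNA, and was the 1 gene of that list that passed. Of the 28 assembly factors outside the rule none passed, and at an unadjusted p under 0.05 there were 9 higher and 0 lower.

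On arrays labelled WAT no member passed either, where 0.0457% of all genes were higher in the cold and 0.0653% lower. Without adjustment, at a p under 0.05, 1 member was higher and 2 lower, where 3.2% of all genes were higher and 3.78% lower. The estimates were positive for 37 and negative for 36 members, with a median of 0.01, and 2 were higher and 3 lower with no overlap, where 4.84% and 5.61% of all genes did. Atp5a1 had the lowest p, with 184, 239.8 and 278 in the cold against 127, 164 and 157 at room temperature and a difference of 0.59 (limma adjusted p = 0.29). Cox6a1 followed in the other direction, with 4239, 3900.4 and 4214 in the cold against 5735, 5882 and 5503 at room temperature and a difference of -0.47 (adjusted p = 0.436). Neither pair overlapped. Cox7b2, near background, was the third (-0.19, adjusted p = 0.759). The median SD of the members was larger on cold arrays labelled WAT (0.267) than in the other 5 groups (0.148 to 0.174).

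On arrays labelled liver 4 of 73 members were higher in the cold and none was lower, where 1.18% of all genes were higher and 3.37% lower. Without adjustment, at a p under 0.05, 17 of 73 members were higher and 1 lower, where 10.2% of all genes were higher and 7.13% lower. The estimate was positive for 58 members and negative for 15, with a median of 0.24, against 0.02 over all genes tested. With 2 arrays against 2, 35 members were higher and 3 lower with no overlap, where 23.4% and 19.9% of all genes did. By complex the medians were 0.24 for I, 0.15 for II, 0.06 for III, 0.33 for IV and 0.38 for V. Hepatocyte markers also differed in this comparison, with medians of 7.2 and 5.7 in the cold against 13.3 and 12.4 at room temperature. The brown adipocyte genes overlapped, with 4.7 and 5.9 in the cold against 5.1 and 4.7 at room temperature. So did the adipocyte genes, with 10.3 and 9.7 in the cold against 9.6 and 9.8 at room temperature. The part of these markers in the 4 calls was not tested.

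**Figure D4:**
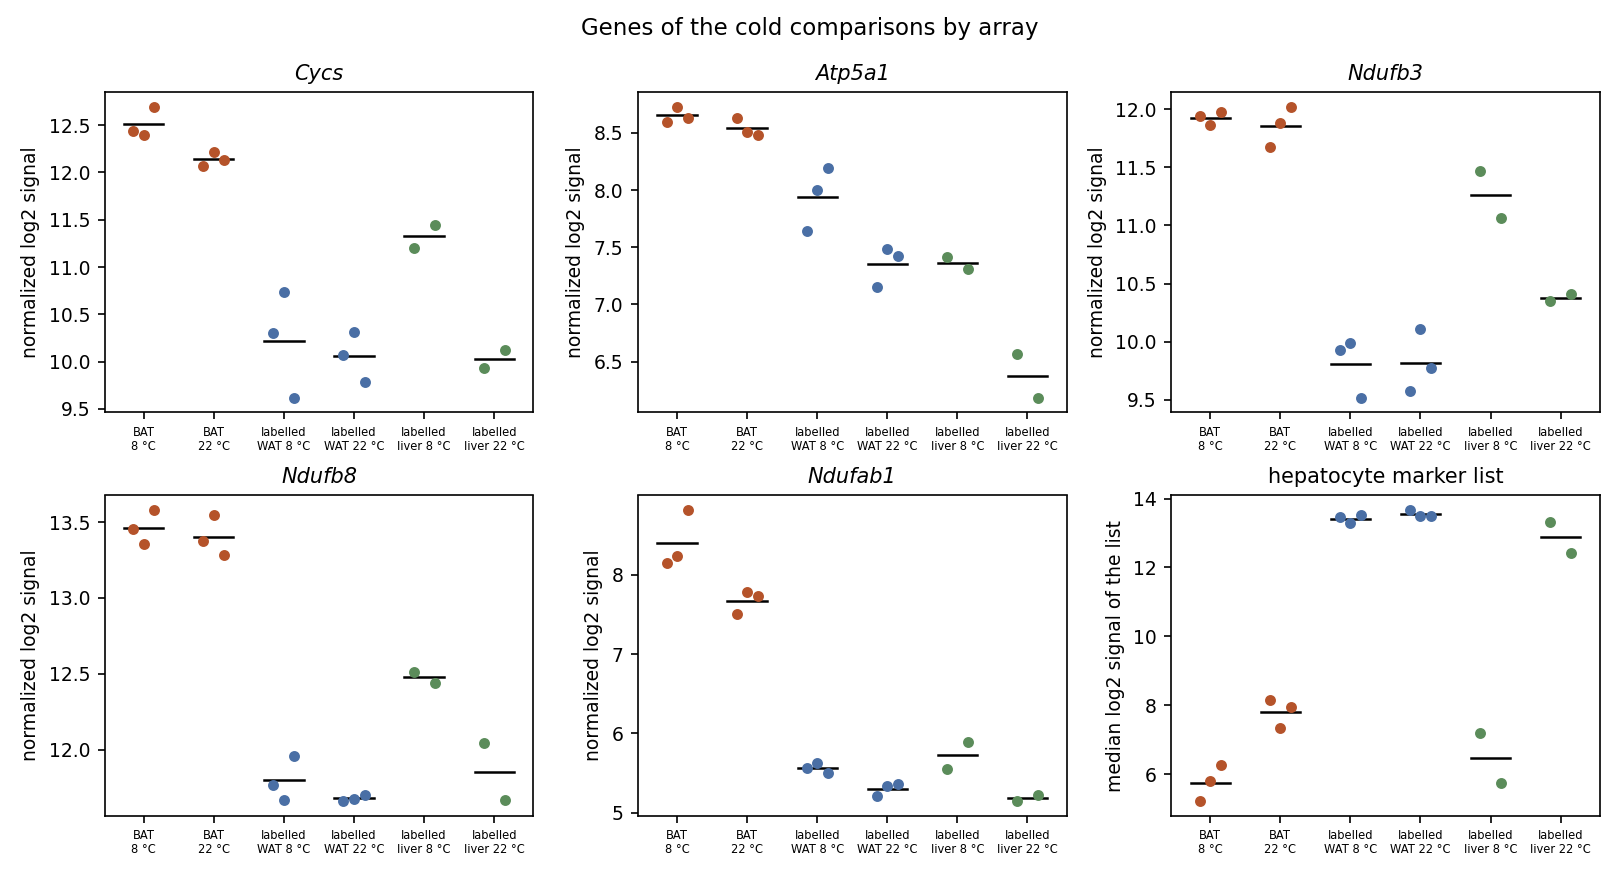
Normalised log2 signals of Cycs, Atp5a1, Ndufb3, Ndufb8 and Ndufab1 on every array, and the median log2 signal of the hepatocyte markers, with 8 °C left of 22 °C for each tissue label. Points are single arrays and lines group means, on axes that differ between panels and do not start at 0; both cold arrays labelled liver lie above both room temperature arrays for all 5 genes and below them for the hepatocyte markers.

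Atp5a1 gave 155 and 144 in the cold against 79.4 and 57.4 at room temperature, and rose by 0.99 ± 0.17 (SE) on the log2 scale (limma adjusted p = 0.00593). Cycs gave 2361 and 2783 in the cold against 964 and 1097 at room temperature and rose by 1.29 ± 0.28 (adjusted p = 0.025). The arrays of both genes were separated by temperature. Ndufb3, an accessory subunit of the complex I membrane arm, gave 2769 and 2107 in the cold against 1285 and 1337 at room temperature and rose by 0.88 (adjusted p = 0.0295). Ndufb8, from the same arm, gave 5690.1 and 5754 in the cold against 4230.2 and 3240.2 at room temperature and rose by 0.62 (adjusted p = 0.0247). Both were again higher on each cold array. The dimmer second probe of Ndufb8 gave 0.75 (limma adjusted p = 0.503). Atp5a1 passed whichever single array was left out, but in a fit of the 4 arrays labelled liver alone it did not (adjusted p = 0.304), and 0 members did. The other 3 calls, unlike that of Atp5a1, were lost without some single arrays. Without labelled liver cold replicate 2, the array with brown fat and muscle transcripts, Cycs was 1.17 (adjusted p = 0.130) and Ndufb8 0.66 (adjusted p = 0.0714), while Ndufb3 passed. Without labelled liver cold replicate 1, Ndufb3 (adjusted p = 0.181) and Ndufb8 (adjusted p = 0.104) did not pass. Without labelled liver room temperature replicate 1 this held for Cycs (adjusted p = 0.217) and Ndufb3 (adjusted p = 0.213), and without replicate 2 for Ndufb3 (adjusted p = 0.0673) and Ndufb8 (adjusted p = 0.129). Cox8b, at 697 and 8456 in the cold against 399.8 and 651 at room temperature, had the largest estimate (2.19, adjusted p = 0.536) but did not pass. Beside the complexes, 3 of 14 genes of the citric acid cycle and pyruvate dehydrogenase rose on these arrays, where 1.18% of all genes did. They were Idh3a by 1.05 (limma adjusted p = 0.0167), Pdha1 by 1.17 (adjusted p = 0.0417) and Mdh2 by 1.5 (adjusted p = 0.0488).

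Whether the response to cold differed between tissue labels was tested directly, as a difference of differences. No member passed between BAT and arrays labelled WAT, between BAT and arrays labelled liver, or between arrays labelled WAT and labelled liver, where 0.00653%, 3.23% and 2.67% of all genes passed in either direction. At an unadjusted p under 0.05, 5 of 73 members were higher and 1 lower for BAT minus labelled WAT, where 4.52% of all genes were higher and 4.21% lower. For BAT minus labelled liver 2 were higher and 6 lower, where 7.25% and 8.85% of all genes were. For labelled WAT minus labelled liver 0 were higher and 11 lower, where 6.07% and 6.96% of all genes were. The rise of Atp5a1 on arrays labelled liver exceeded its change in BAT by 0.88 (BAT minus labelled liver -0.88, limma adjusted p = 0.0773), the lowest adjusted p of these tests. By brightest probe, the OXPHOS calls on arrays labelled liver are thus not shown to be particular to them. A dimmer Ndufs4 probe rose there by 0.68 (limma adjusted p = 0.00175), against -0.21 in BAT and 0.01 on arrays labelled WAT. With any probe counted, Ndufs4 passed in its difference from both. Its brightest probe (0.63, adjusted p = 0.222) and a further probe (0.45, adjusted p = 0.182) did not pass on arrays labelled liver.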

How the data were processed

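Bead array signals of 46643 probes were analysed for 16 arrays. The authors deposited background-subtracted signal intensity values per array, whose lower quartile and median were the same on every array, and a detection score between 0 and 1 that is headed as a p-value but rises with the signal. The upper quartile lay between 18.35 and 18.4 on every array, so the signals were already alike in distribution. The alternatives without normalization or with other scaling therefore cannot show how the results depend on any scaling done before. The deposited value table is log2 of the signal floored at 5 minus each probe's median (it matched that to within 2.54e-06), with 57.5% of signals under the floor, and served as an alternative. The study's methods name GeneSpring GX.

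Signals were corrected by normexp (offset 16, negative controls inferred from the score), quantile normalised and taken to log2 in limma 3.58.1 (R 4.3.3). The 39730 probes (15324 genes) scoring 0.6 or more on 2 or more arrays were tested, and detection meant 0.95 or more. A single fit gave 6 group means, with Benjamini-Hochberg adjustment over all probes. The genes named were the isoform families, Sdha to Sdhd, Cyc1 and Cycs, the member with the largest passing difference per complex and comparison, and in the cold comparisons every passing member or, with fewer than 3, those of lowest p. Ndufv1, Atp5b, Ndufb11, Ndufb2, Ndufc2, Uqcrfs1 and Uqcrq, and the non-member genes, were named after their values were seen. Members and lists were chosen with earlier results of these data known. The scripts were tested on simulated data. Alternatives covered background correction, scaling, filters, the value table, the spread, the methods' t-test, probe choice, replicate number as a block and each array left out. Leaving out the 4 arrays labelled liver, or the 2 arrays that stood apart in markers, was chosen after seeing the data. The number of arrays limits the precision. Promoter windows are from RefSeq (GRCm38.p6), and NRF1 and YY1 were searched with 9 letters after the counts of longer forms were known. Figures were drawn with matplotlib 3.10.9.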

Additional observations from a re-analysis of the deposited data

How the results depend on the processing

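Counts of OXPHOS genes higher in BAT kept within 1.5 times of their value under all alternatives but the methods' t-test after Benjamini-Hochberg, which called 41 against arrays labelled WAT in the cold and, against arrays labelled liver, 0 at room temperature and 6 in the cold. With 1 array left out in turn they ran from 54 to 62 and from 59 to 63 against arrays labelled WAT at room temperature and in the cold, and from 53 to 62 and 49 to 59 against arrays labelled liver. Atp5g3 was the 1 gene that became lower in BAT, against arrays labelled WAT at room temperature under 75th percentile scaling, no normalization, the value table, a separate fit and both replicate blocks (1 each, 0 as reported), and against arrays labelled liver in the cold under no normalization and the value table (1 each). Leaving out the 2 arrays that stood apart gave 1 in each of those comparisons and against arrays labelled WAT in the cold, and single arrays 0 to 1 in these 3.

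Cold calls on arrays labelled liver numbered 2 to 6 with 1 array left out, lowest without labelled liver room temperature replicate 2 and highest without labelled WAT cold replicate 1. They were 0 in a separate fit of those 4 arrays, 2 by the methods' t-test with a 2-fold minimum (Cycs and Ndufb4), 0 by it after adjustment and 1 with a 2-fold minimum added to limma (Cycs). With any probe counted they were 5, with Ndufs4 added. Cox7b2, near background, was 1 call lower under 75th percentile scaling and under no normalization, and without labelled WAT room temperature replicate 2 (0 to 1). In BAT, Ndufab1 made the count 1 under 75th percentile scaling, the filter at the higher score and the replicate block; no single array left out gave a call (0 to 0), nor on arrays labelled WAT (0 to 0). Counts of differing cold responses were 1 for BAT minus labelled liver and 1 for labelled WAT minus labelled liver when any probe counted (Ndufs4), 1 for BAT minus labelled WAT without the 4 arrays labelled liver (Cox6a1), and with single arrays left out 0 to 1, 0 to 2 and 0 to 0 in the order just given. No gene that passed as reported passed in the other direction under these alternatives. The sign of estimates that did not pass could change with a single array left out.

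Whether the replicate numbers pair the arrays is not settled, since the labels do not tie them to animals. Deviations of same-numbered arrays correlated between 0.0930 and 0.174 at room temperature (7 pairs across tissue labels, 6 over 0.1), where every array correlated best with its own number, but between -0.13 and 0.14 in the cold (7 pairs) and -0.07 and 0.10 within a tissue label (8 pairs). With the number as a replicate block the counts higher in BAT were 59 and 62 against arrays labelled WAT and 57 and 55 against arrays labelled liver, Atp5g3 was called lower in 3 comparisons, against arrays labelled WAT at both temperatures (1 each) and arrays labelled liver in the cold (1), and the cold calls were 1 in BAT and 4 on arrays labelled liver, with Ndufv2 in place of Ndufb3. With the replicate block set within each temperature the counts higher in BAT were 57 and 61, and 57 and 53.

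The depth of these values is set by 2 or 3 arrays a group and by signal over background: 3 members had no array above background and 9 only some, and no test of theirs shows that they did not differ.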
